A study of Mus musculus with 68 samples.

Results

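The genes described here were the heat shock proteins and the cytosolic chaperones in mouse dopamine neurons, taken 1 by 1 from the ventral tegmental area (VTA). They were taken by gene symbol: every symbol beginning with Hsp (other than Hspg2, a matrix proteoglycan), with Dnaja, Dnajb or Dnajc and a digit, with Cct and a digit or with Bag and a digit, together with Tcp1, St13 and Stip1. The rule found 100 rows with 99 symbols among the 36172 rows and 35793 symbols of the count table, and used no measured value. Of the 100 rows, 82 held a count in at least 1 cell and 18 were at 0 in every cell, among them all 7 pseudogene rows and both rows of Cct6a. The 72 members with a mean normalized count of at least 5 over all 68 cells and a count in at least 20% of the cells are called measured below, a limit that does not look at genotype and that 9947 genes of the table passed. Another 10 members held a count but did not reach it.

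In these libraries the RNA of 1 neuron was drawn into the patch pipette after recording (Patch-seq) and sequenced, from mice 12 months of age. There were 33 neurons from 3xTg mice, a model of Alzheimer's disease homozygous for human transgenes that include APP Swe and tau P301L, and 35 neurons from WT mice, a separate line of the same hybrid background without the transgenes that was bred in parallel. Both sexes were used. Neither the cell's mouse nor its sex is given in the labels, so that each genotype counts as 1 sample here, and no test between genotypes could be made: differences are given with 95% intervals that cover counting error only, and the spread over cells is a description. Effects of the transgenes and other differences between the lines, or between the mice used, cannot be told apart. The number in each cell's label runs in stretches of 1 genotype: WT 1 to 22 (17 cells) and 3xTg 24 to 55 (21 cells), called the first runs here, WT 57 to 74 (15 cells) and 3xTg 76 to 92 (12 cells), the second runs, and WT 94 to 96 (3 cells). What the numbers mark is not stated, and the differences of the leading genes are given within the first and the second runs beside the pooled one.

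Chaperones bind unfolded or partly folded proteins and let them fold, move or be degraded. HSP70 proteins hold short exposed stretches in cycles of ATP hydrolysis, J-domain proteins (Dnaja, Dnajb and Dnajc) bring them their clients and start the hydrolysis, and BAG proteins, HSP110 and Hspbp1 release the nucleotide. HSP90 takes over signalling proteins such as kinases and steroid receptors, Stip1 bridges HSP70 to HSP90, and the ring-shaped CCT chaperonin folds actin and tubulin. Some of these genes are expressed in every cell at all times, others are switched on by the heat shock factor HSF1 when unfolded proteins accumulate. Neurons are known for a high level of the constitutive Hspa8 and for a weak induction of Hspa1a and Hspa1b.

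The binding site of HSF1, the heat shock element, is made of inverted repeats of a short unit, so the promoters of the members were read first. Promoters of 75 of the 99 symbols were matched in RefSeq (build GRCm38.p6, from 250 bases before the start site to 50 after it). The pair of units GAANNTTC or TTCNNGAA, which read the same on both strands, stood in 21 of the 75 members (28%) and in 17% of 27025 genes. A run of 3 units, in which one of each shares its middle unit with the other, stood in 4 members (5.33%), Dnajb6, Hspd1, Hspe1 and Hsph1, against 0.662% of all genes. CCAAT, searched on both strands, was in 41.3% of the members and 41.1% of all genes, and TATAAA in 6.67% and 15.7%. A match in this window describes letters only and not a site in use.

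Stretches of 60 bases before the start site are shown for 6 inducible or abundant members with paired units, since these are the letters HSF1 is known to bind, with the units in capitals, 5′ to 3′ on the strand of the gene. Hspa1a (chr17:34972222-34972281, minus strand) and Hspa1b (chr17:34959304-34959363, minus strand), the inducible HSP70 genes, have the same 60 bases, and their windows are equal at 296 of 300 positions. The Hspe1 stretch (chr1:55088038-55088097, plus strand) lies between the start sites of Hspe1 and Hspd1, which run away from each other, and stands before both. The others are Dnajb6 (chr5:29735828-29735887, plus strand), Hspb1 (chr5:135887784-135887843, plus strand) and Dnaja1 (chr4:40722323-40722382, plus strand).
Hspa1a: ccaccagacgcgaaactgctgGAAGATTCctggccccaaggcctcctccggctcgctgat
Hspa1b: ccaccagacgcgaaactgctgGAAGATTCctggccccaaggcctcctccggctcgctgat
Hspe1: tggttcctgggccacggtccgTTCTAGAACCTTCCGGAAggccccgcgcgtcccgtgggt
Dnajb6: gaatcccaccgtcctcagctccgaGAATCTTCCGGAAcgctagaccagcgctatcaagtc
Hspb1: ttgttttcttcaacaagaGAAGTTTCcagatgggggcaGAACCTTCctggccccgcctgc
Dnaja1: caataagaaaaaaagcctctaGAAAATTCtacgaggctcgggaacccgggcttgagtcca
Hspe1 and Dnajb6 show an unbroken array, Hspb1 carries separate pairs, and Hspa1a, Hspa1b and Dnaja1 a single pair.

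The members took a visible part of each neuron's RNA. Of a cell's counts they made up 1.09% to 3.59% in 3xTg neurons, with a median of 2.33%, and 0.743% to 3.27% in WT neurons, with a median of 1.75%. The ranges overlapped over most of their width. By run the medians were 2.18% in WT 1 to 22, 2.19% in 3xTg 24 to 55, 1.66% in WT 57 to 74, 2.62% in 3xTg 76 to 92 and 1.01% in WT 94 to 96. The first runs were thus level, and the higher share in 3xTg stood in the second runs, where the WT cells were lower and the 3xTg cells higher than those of the first. Cells held 492505 to 1678624 counts, and genes with a count ranged from 3800 to 10527 a cell, with a median of 8629 in 3xTg and 7603 in WT. A median of 60 members had a count in a 3xTg cell and of 49 in a WT cell.

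**Figure D1:**
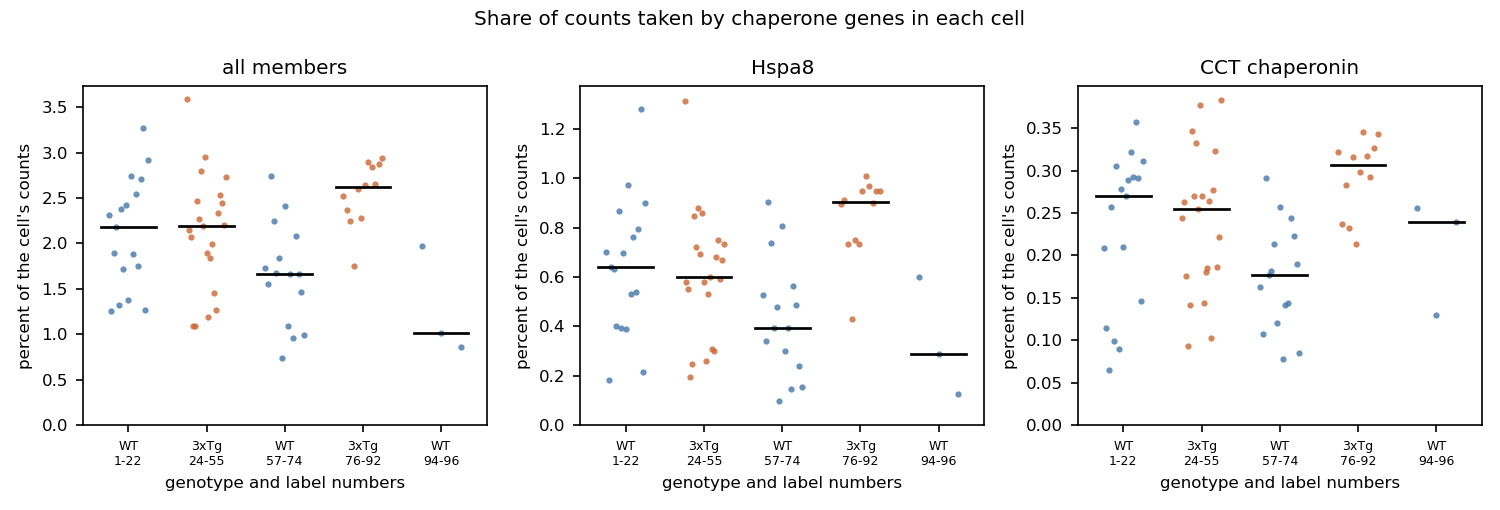
Percent of each neuron's counts (y axis) that fell on all members, on Hspa8 and on the CCT chaperonin, for the 5 runs of label numbers (x axis); each point is 1 cell and the bar is the median. Medians for all members are 2.18% and 2.19% in the first runs and 1.66% in WT and 2.62% in 3xTg of the second runs.

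A few genes carried most of this. Hspa8, the constitutive cytosolic HSP70, alone held 31.1% of the members' counts in 3xTg and 29.3% in WT, and with Hsp90ab1, Hsp90aa1, Hspa5 and Dnaja1 the share was 56.9% and 56.5%. Levels of different genes were set side by side per kilobase of coding length, a rough scale that leaves out the untranslated parts of a transcript. On it Hspa8 stood at 3817 CPM (counts scaled to a total of 1000000 per genotype) in 3xTg and 2924 in WT. Hsp90ab1, the constitutive cytosolic HSP90, followed at 1185 and 954, Hspe1, the lid of the mitochondrial chaperonin, at 834 and 669, and Hsp90aa1, the inducible cytosolic HSP90, at 831 and 731. The coding length of Hspe1 is only 306 bases, and the order of Hspe1 and Hsp90aa1 cannot be read from this scale. Dnaja1, a J-domain partner of Hspa8, had 586 and 505, and Hspa5 (BiP), the HSP70 of the endoplasmic reticulum, 523 and 504. The inducible Hspa1a had 9.53 and 6.11, and Hspa1b 2.81 and 1.88. Only 8 members had a count in all 68 cells: Hspa8, Hsp90ab1, Hsp90aa1, Hsp90b1, Dnaja1, Dnajb1, Hspbap1 and Hspb7.

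Across the 72 measured members, summed counts were more often higher than lower in 3xTg, but seldom by much. The log2 ratio of the summed counts, as CPM, 3xTg over WT, had a median of 0.30 over the members and of -0.02 over all 9947 measured genes, and was above 0 for 57 members. In the first runs the medians were 0.43 for the members and 0.15 for all genes, and in the second runs 0.36 and -0.11. Of all measured genes 48.9% were above 0 over all cells, 57.04% in the first runs and 45.4% in the second. For the members these shares were 79.2%, 68.1% and 69.4%. Ratios of at least 2-fold were no more frequent than over the whole table. Cct3, Hspa12a and Dnajc24 were at least 2-fold higher (3 of 72, 4.17%, against 8.26% of all measured genes), and Dnajc18 and Dnajc28 at least 2-fold lower (2 of 72, 2.78%, against 9.55%). In the first runs 14 members (19.4%) were that much higher and 3 lower, with 20.1% and 12.7% of all genes. In the second runs 3 were higher and 5 lower, with 10.4% and 18% of all genes. The direction was more alike: 31 members (43.1%) were above 0 in both pairs of runs, where 26.5% of all genes were, and 4 (5.56%) were below 0 in both, where 24.1% were. The members had a count in a median of 79.4% of the cells and all measured genes in 66.2%, and the comparison was not matched for level. The genes also share cells and libraries, and these counts are a description.

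**Figure D2:**
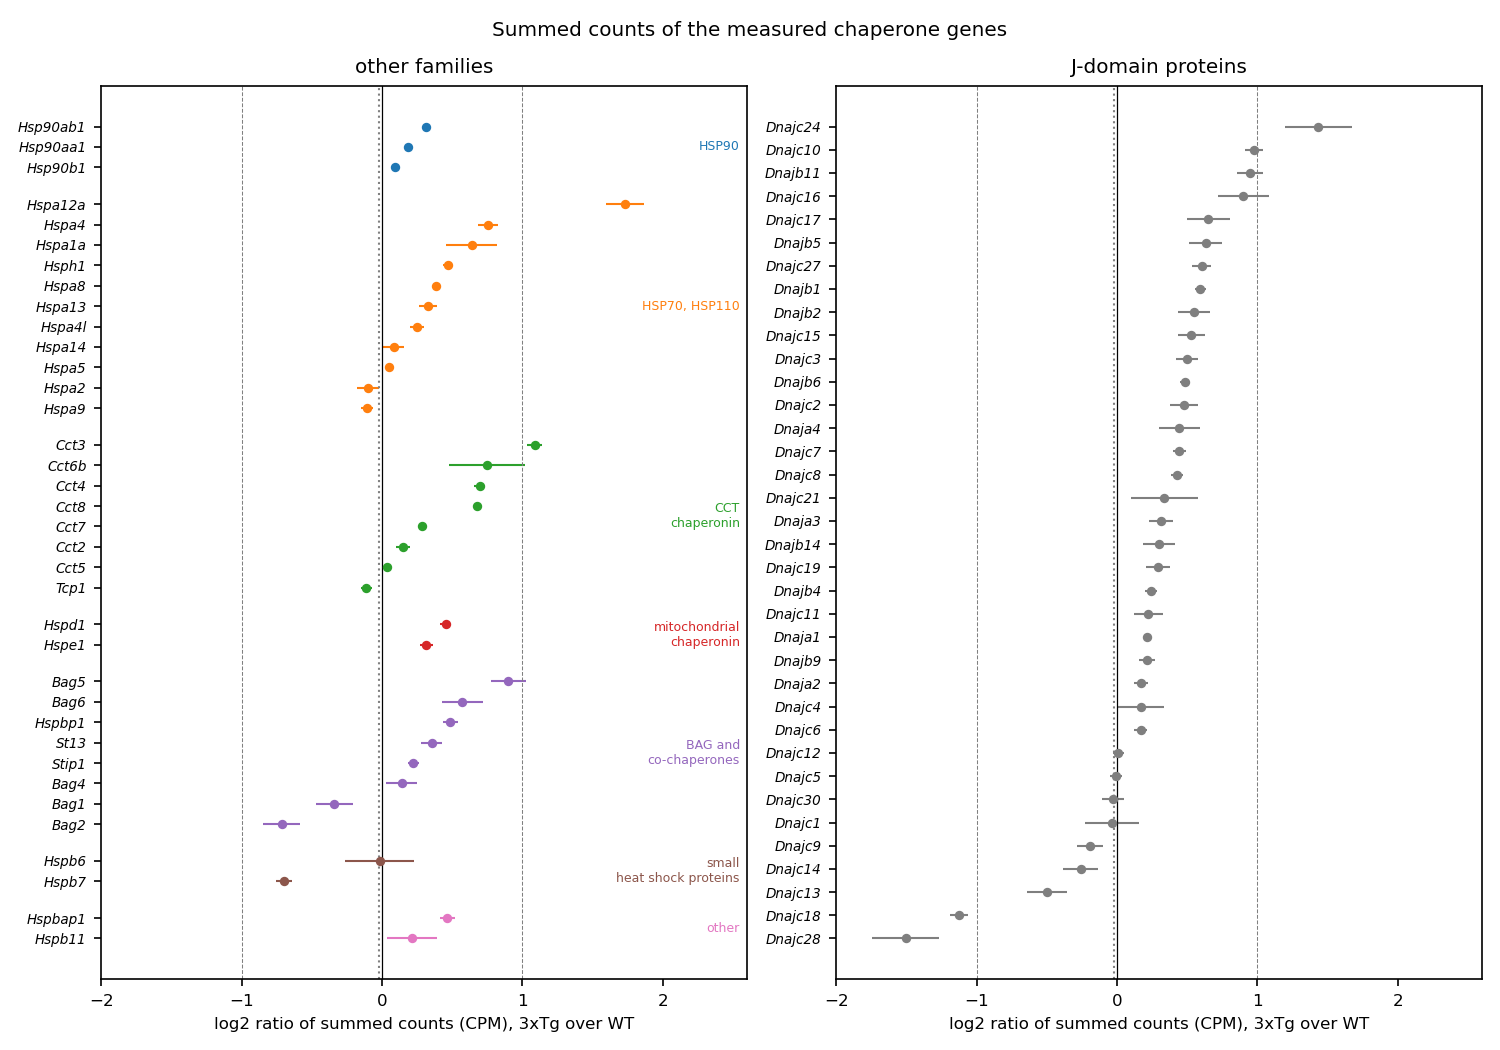
Log2 ratio of summed counts as CPM, 3xTg over WT (x axis), for the 72 measured members by family; the bars are 95% intervals for counting error only, the dotted line is the median of all measured genes and the dashed lines mark 2-fold. Most points lie between 0 and 1, with Cct3, Hspa12a and Dnajc24 above and Dnajc18 and Dnajc28 below 2-fold.

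Sums over cells follow the richest cells, so log2(normalized count + 1) was also averaged over cells, where each cell has the same weight. This mean was 0.55 higher in 3xTg for the median gene of the table, and differences are given relative to that gene. On this scale the members' median was 0.38 and 55 of 72 were above 0. At least 2-fold higher were 12 members (16.7%, against 9.78% of all genes): Cct2, Cct3, Cct4, Hspa4, Hsph1, Hspd1, Dnaja2, Dnajc6, Dnajc7, Dnajc10, Dnajc27 and Bag5. Only Hspb7 was at least 2-fold lower (1.39%, against 7.29%). The first runs had 16 higher members (22.2%, against 14.3%) and 6 lower (8.33%, against 9.88%), and the second runs 18 higher (25.0%, against 19.2%) and 4 lower (5.56%, against 19.7%). A count was found in a larger share of 3xTg than of WT cells for 58 members (80.6%, with 73.4% of all measured genes), in a smaller share for 6 and in the same share for 8. With every cell thinned to 700471 counts, leaving out 2 3xTg and 5 WT cells below that depth, a median of 60 members had a count in 3xTg cells and 49.5 in WT cells. The number of genes detected moved the same way, with medians of 8402 and 7058 after thinning, and its part in the members' difference was not tested.

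Other cell types and other gene groups moved with genotype too. Over the 8 dopamine neuron genes (Th, Slc6a3, Slc18a2 and others), all 8 were above 0 in the summed counts, with a median log2 ratio of 0.35, and 6 of 8 by the mean over cells, with a median of 0.17 relative to the median gene. Th, the rate-limiting enzyme of dopamine synthesis, had a count in all 68 cells. That was set by selection, since the study kept cells positive for Th, Slc6a3 and Slc18a2, which are among these 8 genes. All 10 microglia markers had a count, and their summed level was 424 CPM in 3xTg and 1065 CPM in WT, from 0 to 12196 CPM in single 3xTg cells and 0 to 8512 CPM in WT cells, with the defining Tmem119 at 0 in 3xTg and in 1 of 35 WT cells. Of the 7 measured markers 5 were below 0, down to -2.33 for Aif1, while C1qc was at 1.82, detected in 11 of 33 and 5 of 35 cells, and Cx3cr1 at 0.27. The 3xTg cell labelled 43 held 54.1% of the 3xTg sum, which was 198.5 CPM without it, and WT was at 851 CPM without its richest cell. The median 3xTg cell was at 144 CPM and the median WT cell at 181 CPM. Of the 8 astrocyte markers 7 had a count, at 294 CPM in 3xTg and 481 CPM in WT, with Aldh1l1 at 0 in both and single cells from 57.2 to 926 CPM and from 6.13 to 2679 CPM. The study selected cells without Pvalb, Tmem119, P2ry12 and Aldh1l1, yet 5 3xTg and 5 WT cells held a count of one of them, and without these the members' median log2 ratio was 0.24. The 7 oligodendrocyte markers summed to 101 CPM in 3xTg and 302 CPM in WT, and the 7 markers of GABA and glutamate neurons to 55.4 and 101 CPM. The 6 endothelial markers, 3 of them with a count, summed to 16.8 and 2.56 CPM (11.9 and 1.004 CPM without the richest cell of each genotype). Of these, Itm2a had 613 counts in 3xTg and 54 in WT, Vwf 2 and 32, and Flt1 1 in each. The part of these markers in the members' differences was not tested.

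By summed counts Hspa8 was higher in 3xTg over all cells and in the second runs, and level in the first. It summed to 271597 counts over 3xTg cells and 192769 over WT cells, or 7398 (7370 to 7426) and 5666 (5641 to 5691) CPM. Normalized counts went from 799 through a median of 7746 to 22127 in 3xTg cells and from 396 through 5223 to 28684 in WT cells. The cells overlapped over nearly the whole range, and 25 of 33 3xTg cells lay above the median WT cell. The log2 ratio was 0.38 (0.38 to 0.39), but -0.04 in the first runs and 0.86 in the second. Median normalized counts by run were 7124, 5896, 3254, 8255 and 1792 in order of the labels. Of the second 3xTg run 11 of 12 cells, and of the first 10 of 21, were above the median WT cell of the matching run. Between WT runs the log2 ratio of the second over the first was -0.49, larger in size than the pooled difference between genotypes. Relative to the median gene, its mean over cells differed by 0.09 over all cells, -0.66 in the first runs and 0.89 in the second, so that the runs pointed in opposite directions.

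The cytosolic HSP90 genes followed the same course. Hsp90ab1 stood at 2575 CPM in 3xTg against 2071 CPM in WT neurons, a log2 ratio of 0.31 (0.30 to 0.33), with -0.02 in the first runs and 0.67 in the second. Hsp90aa1 had 1828 and 1606 CPM, a log2 ratio of 0.19 (0.17 to 0.20), with -0.14 and 0.64. Their normalized counts overlapped as those of Hspa8 did, from 288 to 8319 in 3xTg and 89.3 to 8779 in WT for Hsp90ab1, and from 267 to 7245 and 140 to 9492 for Hsp90aa1. Hsp90b1 (GRP94), the HSP90 of the endoplasmic reticulum, had 586 and 550 CPM and differed little, with a log2 ratio of 0.09 (0.06 to 0.12), 0.02 in the first and 0.04 in the second runs. Relative to the median gene, the mean over cells gave 0.004 for Hsp90ab1, with -0.65 and 0.70 in the runs, -0.18 for Hsp90aa1, with -0.82 and 0.52, and 0.23 for Hsp90b1, with -0.09 and 0.13.

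**Figure D3:**
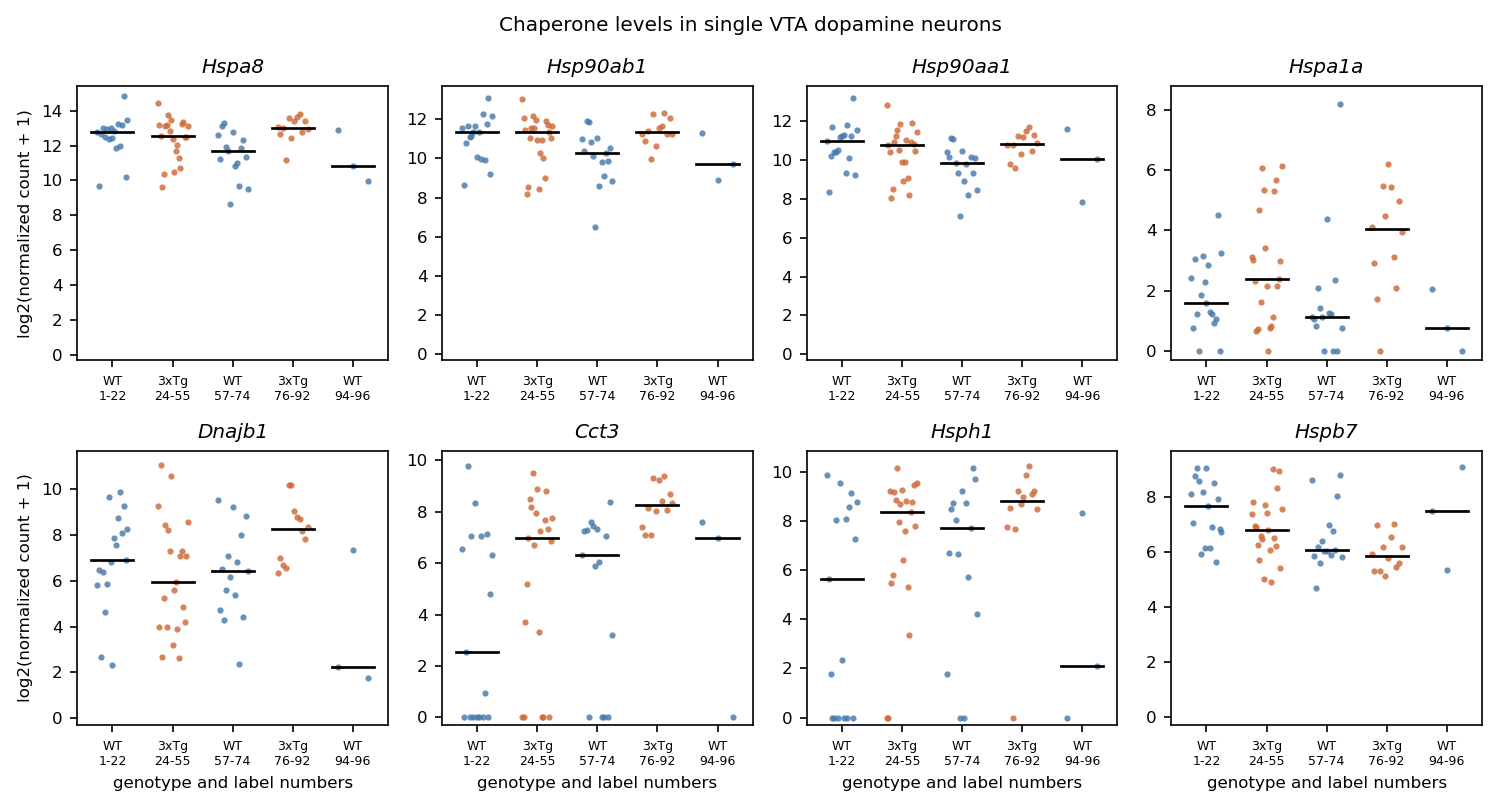
Log2(normalized count + 1) of 8 members in each neuron (y axis) by run of label numbers (x axis); each point is 1 cell and the bar is the median of the run. For Hspa8 and both cytosolic HSP90 genes the second WT run lies lowest of the large runs, while Cct3 has cells at 0 in every run but 3xTg 76 to 92.

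Among the other HSP70 genes, Hspa5 was nearly level, with 37751 counts in 3xTg and 33720 in WT and a log2 ratio of 0.05 (0.03 to 0.07), which was -0.44 in the first runs and 0.57 in the second, and -0.06 without the 3xTg cell labelled 92. Hsph1, an HSP110 protein that releases nucleotide from HSP70, stood at 404 CPM in 3xTg against 291 CPM in WT neurons, a log2 ratio of 0.47 (0.44 to 0.51), with 0.50 and 0.42 in the runs. By the mean over cells Hsph1 was among the members with the largest difference, 1.67 relative to the median gene, with 1.99 and 1.13 in the runs. It was detected in 30 of 33 3xTg cells and in 26 of 35 WT cells, and after thinning in 28 of 31 and 22 of 30. The median 3xTg cell had 408 normalized counts and the median WT cell 104, with cells from 0 to 1217 and from 0 to 1136. Hspa12a, a distant relative of HSP70, had the largest log2 ratio of the measured members, 1.73 (1.59 to 1.86), but 60.8% of its 3xTg counts came from the cell labelled 24, and without that cell the ratio was 0.42. The first runs, in which it lies, gave 2.56 with it and 0.73 without it, and the second runs -0.05. By the mean over cells Hspa12a was above 0 in both pairs of runs and past 2-fold in the first. It was detected in 18 of 33 3xTg cells and in 11 of 35 WT cells.

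The heat-inducible members did not move as 1 block. Of the 12 genes of this list (Hspa1a, Hspa1b, Hspa8, Hsp90aa1, Hsph1, Hspb1, Dnaja1, Dnajb1, Hspd1, Hspe1, Bag3 and Stip1) 9 were measured, all 9 were above 0 in the summed counts, with ratios from 0.19 to 0.64 and a median of 0.38, and none reached 2-fold. In the first runs 5 of the 9 were above 0 and in the second 8 of 9, where 57.04% and 45.4% of all measured genes were. By the mean over cells, relative to the median gene, 6 of the 9 were above 0, with Hsph1 and Hspd1 past 2-fold, but 3 of 9 in the first runs, with a median of -0.41, and 9 of 9 in the second, with a median of 0.99. Bag3, an HSP70 partner in selective autophagy, is listed at 0 in every cell. Immediate early genes, which respond to activity and to handling of tissue, had a median log2 ratio of 0.84, with 7 of 9 measured genes above 0, and 0.59 and 0.99 in the first and second runs. Between the WT runs they moved more: the second over the first had a median of -2.40, with 9 of 9 below 0. The second 3xTg run over the first had a median of -0.84, with 7 of 9 below 0. Their part in the members' differences was not tested. Of 4 measured genes of the heat shock factor list 1 was above 0 in the summed counts, with a median of -0.16, and 2 by the mean over cells, with a median of -0.22 relative to the median gene. Hsf1, the main factor of the heat shock response, stood at 39.5 CPM in 3xTg against 42.03 CPM in WT neurons, a log2 ratio of -0.09, with -0.37 and 0.01 in the runs, and 0.57 without the WT cell labelled 20. Its other values pointed upwards: it was detected in 22 of 33 3xTg cells and in 12 of 35 WT cells, and its mean over cells was 0.63, with 0.51 and 0.49 in the runs. Hsf2 had 14.03 and 16.4 CPM, a ratio of -0.23, and -0.65 by the mean over cells. Hsf4, known from the lens, was the only one of them past 2-fold, at 11.98 CPM against 30.01 CPM, a ratio of -1.32, with -1.65 and -1.13 in the runs. The ratio of Hsf4 was -0.59 without the WT cell labelled 6, and its mean over cells was -0.53.

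Hspa1a was low and uneven. It had 673 counts in 3xTg, in 31 of 33 cells, and 400 in WT, in 29 of 35 cells, and the normalized count went from 0 through 7.03 to 72.3 in 3xTg and from 0 through 1.36 to 291 in WT. The log2 ratio was 0.64 (0.46 to 0.82), with 2.20 in the first runs and -0.15 in the second. The WT cell labelled 73 alone held 71.5% of the WT counts. Without it the ratio was 2.41 over all cells and 2.52 in the second runs, the second of these chosen after seeing the data. By the mean over cells the difference was 0.91 relative to the median gene, with 0.52 and 1.35 in the runs. This cell was also the richest WT cell in Hspa1b, with 53.7% of the 123 WT counts. The median 3xTg cell was above the median WT cell in both pairs of runs, with 4.23 against 2.02 in the first and 15.4 against 1.21 in the second, and 15 of 21 and 11 of 12 3xTg cells were above the median WT cell. Hspa1a and Hspa1b share a run of 638 identical bases, so that reads could be split between them in counting.

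Dnajb1, a heat-inducible J-domain partner of cytosolic HSP70, had a count in all cells. It stood at 337 CPM in 3xTg against 223 CPM in WT neurons, a log2 ratio of 0.59 (0.55 to 0.64), with 0.19 in the first and 0.93 in the second runs, and cells from 5.15 to 2179 and from 2.42 to 952 normalized counts. Without the 3xTg cell labelled 29 the ratio was 0.36, and relative to the median gene the mean over cells was -0.01, with -1.16 in the first runs and 1.17 in the second. Stip1, which hands clients from HSP70 to HSP90, had 330 and 283 CPM, a log2 ratio of 0.22 (0.18 to 0.26), with -0.18 and 0.78 in the runs. Its mean over cells had the other sign, -0.33, with -1.32 and 1.42 in the runs, and it was detected in 26 of 33 3xTg cells and in 30 of 35 WT cells. On that measure both genes were thus lower in 3xTg in the first runs and higher in the second.

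The mitochondrial chaperonin was higher in both pairs of runs by summed counts. Hspd1, its barrel, stood at 346 CPM in 3xTg against 252 CPM in WT neurons, a log2 ratio of 0.45 (0.41 to 0.49), with 0.46 in each pair of runs to 2 decimals. Hspe1, which shares the promoter shown above, had 255 and 205 CPM, a ratio of 0.32 (0.27 to 0.36), with 0.20 and 0.47. Averaged over cells Hspd1 was at 1.18, with 1.29 and 0.71 in the runs, and Hspe1 at 0.30, with -0.15 and 0.86, and -0.03 in thinned cells. Both had cells at 0 in each genotype, and the ranges overlapped: the highest 3xTg and WT cells had 1115 and 1117 normalized counts of Hspd1 and 959 and 566 of Hspe1. Of a fixed list of 7 other mitochondrial folding genes, 5 were above 0 and the median log2 ratio was 0.46, and by the mean over cells 4, with a median of 0.95. The other 2, the mitochondrial proteases Lonp1 and Htra2, were more than 2-fold lower in the sums, at -1.59 with -0.95 and -0.12 in the runs, and at -1.22 with -2.29 and -0.31. Of the WT counts of Lonp1 53.2% lay in the 3 cells WT 94 to 96, which are in neither pair of runs, and without them its ratio was -0.60. That of Htra2 was -0.89 without the WT cell labelled 16. Averaged over cells, Lonp1 was at -0.66, with 0.06 and -0.34 in the runs, and Htra2 at -1.06, with -1.68 and 0.16. Hspa9 (mortalin), the HSP70 that pulls proteins into mitochondria, went the other way by a little, -0.11 (-0.15 to -0.07), below 0 in both pairs of runs, while its mean over cells was -0.33, with -0.83 and 0.16.

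The CCT chaperonin, a ring of different subunits, had 8 measured genes, whose ratios were unequal. In the order of the ratio, Cct3 was at 1.09 (1.03 to 1.14), Cct6b at 0.75 (0.48 to 1.02), Cct4 at 0.70 (0.66 to 0.73), Cct8 at 0.68 (0.65 to 0.71), Cct7 at 0.29 (0.26 to 0.31), Cct2 at 0.15 (0.10 to 0.20), Cct5 at 0.04 (0.00 to 0.07) and Tcp1 (the alpha subunit) at -0.11 (-0.15 to -0.07). Cct3, Cct4 and Cct8 were higher in both pairs of runs, with 0.83 and 1.41, 0.71 and 0.76, and 0.66 and 0.79. Cct5 and Tcp1 were below 0 in the first runs, -0.22 and -0.73, and above it in the second, 0.53 and 0.74. All 8 were above 0 in the second runs and 5 in the first, where 45.4% and 57.04% of all measured genes were. The sign of the small ratios rested on single cells: that of Cct2 was -0.08 without the 3xTg cell labelled 24, that of Cct5 -0.01 without the WT cell labelled 9 and that of Tcp1 0.03 without the WT cell labelled 18. By the mean over cells, relative to the median gene, 3 of the 8 were below 0, Cct5 at -0.73, Tcp1 at -0.36 and Cct7 at -0.30, so that Cct5 and Cct7 differ in sign between the measures, and the other 5 were at 1.68 for Cct3, 1.42 for Cct4, 1.004 for Cct2, 0.93 for Cct8 and 0.38 for Cct6b. The same 3 were below -1 in the first runs and above 0 in the second, with -1.09 and 0.49 for Cct5, -1.43 and 1.28 for Tcp1 and -1.18 and 0.36 for Cct7. Cct3, Cct4, Cct2 and Cct8 were above 0 in both, and Cct6b was at 0.62 and -0.15.

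Per kilobase of coding length the subunits also stood at different levels, in 3xTg from 414 CPM for Cct7 through 316 for Cct8, 262 for Cct5, 246 for Cct4, 160 for Tcp1 and 149 for Cct3 to 112 for Cct2. In WT, Cct3 was lowest of these with 69.9 CPM, after Cct2 with 101, and Cct7 highest with 340. Cct6b, known from the testis, had 5.45 and 3.25, while both rows of Cct6a, the zeta subunit of most tissues, are listed at 0 in all cells, so that this subunit cannot be read from the table. Cct3 had a count in 28 of 33 3xTg cells (84.8%, Clopper-Pearson interval 68.1% to 94.9%) and 23 of 35 WT cells (65.7%, 47.8% to 80.9%), and after thinning in 27 of 31 and 21 of 30. All 12 cells of 3xTg 76 to 92 had one. Its normalized count had a median of 204 in 3xTg and 65.8 in WT, with highest cells of 736 and 872. Over the 68 cells the 28 pairs of CCT subunits had Spearman correlations of 0.21 to 0.58, with a median of 0.41, where the 2556 pairs of all measured members had a median of 0.19.

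**Figure D4:**
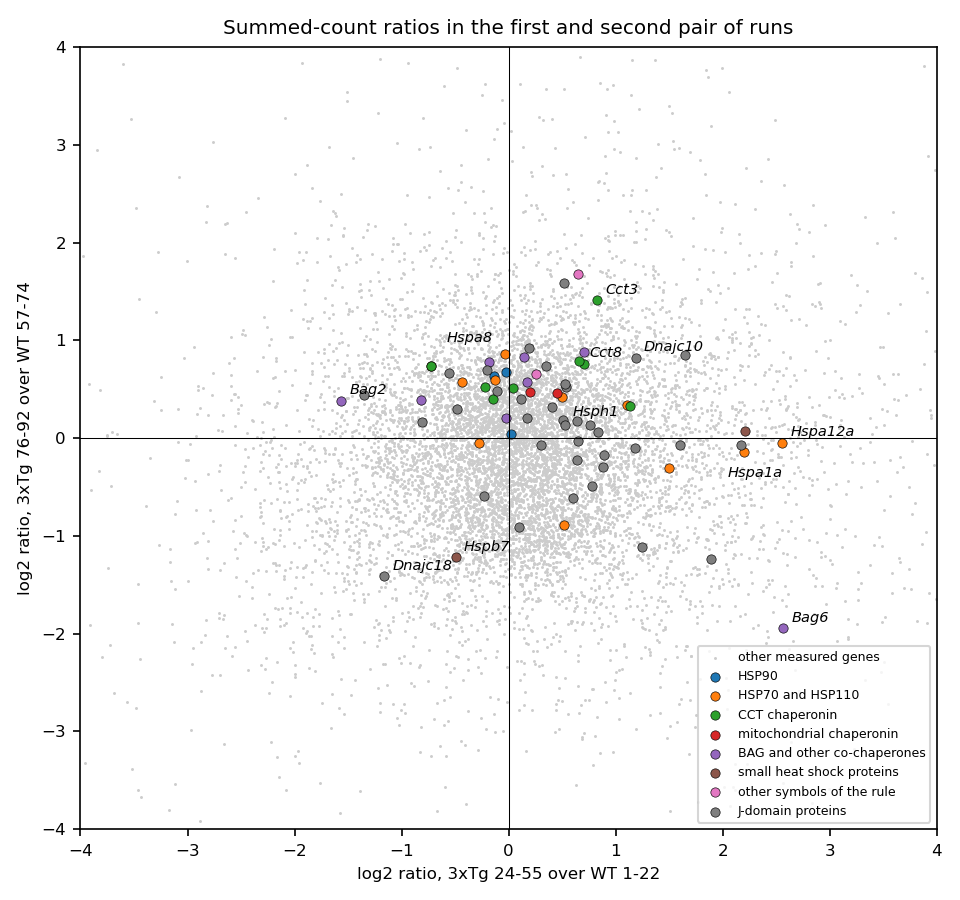
Log2 ratio of summed counts, 3xTg over WT, in the first runs (x axis) and in the second runs (y axis), for the 72 measured members in colour by family and for the other measured genes in grey; 329 genes beyond the axes are not drawn. Cct3, Cct8 and Dnajc10 lie above 0 on both axes, and Dnajc18 and Hspb7 below 0 on both. Hspa8 lies above 0 only on the axis of the second runs.

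The J-domain proteins were the largest group, with 45 genes of which 36 were measured. Their median log2 ratio was 0.30, 28 were above 0, and 15 were above 0 in both pairs of runs. All 8 measured Dnajb genes were above 0, from 0.21 to 0.95, as were all 8 in the first runs, but in the second runs 4 of 8, with a median of 0.03, and by the mean over cells 6 of 8. The 4 of 8 in the second runs lay near the share of all measured genes above 0, 45.4%. In the first runs that share was 57.04%. The 24 Dnajc genes spread from -1.51 to 1.43. The highest sums were those of Dnaja1, with 698 CPM in 3xTg and 601 CPM in WT and a log2 ratio of 0.22 (0.19 to 0.24), and of Dnajb6, which keeps aggregation-prone proteins soluble, with 397 and 284 CPM and a ratio of 0.48 (0.45 to 0.52). Dnaja1 was -0.20 in the first runs and 0.69 in the second, Dnajb6 0.64 and 0.17, and Dnajb6 was at 0.30 without the 3xTg cell labelled 24.

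Dnajc10 (ERdj5), a disulphide reductase of the endoplasmic reticulum that works with Hspa5, had the largest difference of the measured members by the mean over cells, 1.79 relative to the median gene. It summed to 6062 counts over 3xTg cells and 2861 over WT cells, a log2 ratio of 0.97 (0.91 to 1.04), with 1.19 and 0.82 in the runs, and a count in 30 of 33 and 24 of 35 cells, or 28 of 31 and 21 of 30 after thinning. Median normalized counts were 144 in 3xTg and 33.1 in WT, and the highest cells, 357 and 361, were alike. Dnajb11 (ERdj3), another Hspa5 partner, had a log2 ratio of 0.95 (0.85 to 1.04), which stood in the first runs alone, 2.17 against -0.07. Their means over cells by run were 2.39 and 0.82 for Dnajc10, and 1.86 and -0.27 for Dnajb11. The 13 measured genes of the endoplasmic reticulum folding list had a median log2 ratio of 0.26, with 10 above 0 and none past 2-fold, and 10 and 7 above 0 in the runs. Averaged over cells the median was 0.57, with 12 above 0, and 2 genes were past 2-fold. These were P4hb, a protein disulphide isomerase, at 1.59, with a log2 ratio of 0.73, and Sil1, a nucleotide exchange factor of Hspa5, at 1.18. The log2 ratio of Sil1 had the other sign, -0.44, and was 0.18 without the WT cell labelled 9, and it was detected in 22 of 33 3xTg cells and in 12 of 35 WT cells. Dnajc27, a small GTPase with a J-domain, was detected in 25 of 33 3xTg cells and in 16 of 35 WT cells, and in 24 of 31 and 15 of 30 after thinning, with a log2 ratio of 0.60 (0.53 to 0.67) and 0.54 and 0.52 in the runs, and 0.94 without the WT cell labelled 14.

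Dnajc18 was, by summed counts, the measured member that was lower in both pairs of runs by the most. It summed to 2969 counts over 3xTg cells and 6010 over WT cells, or 80.9 and 177 CPM, a log2 ratio of -1.13 (-1.19 to -1.06), with -1.17 and -1.42 in the runs, and leaving out any 1 cell moved it between -1.22 and -0.95. The mean over cells differed by -0.60 relative to the median gene, with -0.75 and -0.78 in the runs, where Hspb7 was lower, with -1.13 and -1.21. Median normalized counts were 63.1 in 3xTg and 54.8 in WT, 17 of 33 3xTg cells were above the median WT cell, and the highest cell had 255 in 3xTg and 1654 in WT. Dnajc28 had a ratio of -1.51 (-1.75 to -1.27) on 203 and 534 counts, of which the WT cell labelled 94 held 55.2%, and the ratio was -0.40 without it and 0.44 in the second runs. Dnajc24, a protein of diphthamide synthesis, had 573 and 197 counts, a ratio of 1.43 (1.19 to 1.67), with 1.65 and 0.85 in the runs, and 0.75 without the 3xTg cell labelled 43. Dnajc13, an endosomal protein, had -0.50 (-0.64 to -0.36), with 0.09 and -0.91 in the runs, and -0.16 without the WT cell labelled 2. It was detected in 20 of 33 3xTg cells and in 11 of 35 WT cells, and its mean over cells went the other way, 0.39 relative to the median gene, with 0.90 and -0.15 in the runs.

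Co-chaperones of the BAG group and the others were mostly slightly higher, 6 of 8 measured above 0 with a median of 0.29. In the first runs 4 of 8 were above 0, with a median of 0.06, and in the second 7 of 8, with a median of 0.48. Hspbp1, a nucleotide exchange factor of HSP70, stood at 211 CPM in 3xTg against 151 CPM in WT neurons, a log2 ratio of 0.49 (0.44 to 0.54), with 0.14 and 0.83. Bag2, which restrains the ubiquitin ligase Stub1, had the lowest ratio of the group, -0.72 (-0.84 to -0.59), but without the WT cell labelled 9, with 48.6% of the WT counts, it was 0.19, and the runs gave -1.56 and 0.38. Of 14 measured HSP90 partners 9 were above 0, with a median log2 ratio of 0.23, but 10 in the first runs, with a median of 0.53, and 7 in the second, with a median of -0.04. On the mean over cells 11 were above 0, with a median of 0.61 relative to the median gene. Tomm34, which binds HSP70 and HSP90 and takes part in mitochondrial import, was the only one of them past 2-fold in the sums, with 93.8 and 33.6 CPM, a ratio of 1.48, 2.36 and 1.16 in the runs, and 1.16 without the 3xTg cell labelled 24. Fkbp4, a co-chaperone of steroid receptors, had 304 and 173 CPM and a ratio of 0.81, with 0.74 and 0.87 in the runs. The lowest were Chordc1 at -0.64, with -1.84 and 0.66 in the runs, Unc45a, a myosin chaperone, at -0.45, with -0.67 and -0.47, and Sugt1 at -0.35, with -0.11 and -0.55. Of the 5 measured prefoldin genes, which pass actin and tubulin to the CCT ring, 3 were above 0, with a median of 0.16, and 4 by the mean over cells, with a median of 0.37. Hspbap1 and Hspb11 (Ift25, of intraflagellar transport), which the rule took by symbol, had ratios of 0.47 (0.41 to 0.52) and 0.21 (0.04 to 0.39), and mean differences over cells of 0.14 and 0.73. The pooled ratio of Hspb11 lay below those of its runs, 0.65 and 1.67, since WT 94 to 96 held 45.7% of its WT counts. It was 0.98 without these 3 cells, 0.69 without the WT cell labelled 11 and -0.04 without the 3xTg cell labelled 26.

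The small heat shock proteins were scarce. Hspb2, Hspb3 and Hspb9 are listed at 0 in all cells, Hspb6 had 285 and 267 counts in 8 cells of each genotype, and Hspb8 had 248 and 1116 counts, of which the WT cell labelled 9 held 72.6%. Hspb1 (HSP25), the inducible one whose promoter is shown above, had 138 counts in 6 3xTg cells and 1 count in 1 WT cell, a log2 ratio of 6.999 with a counting interval of 4.50 to 12.31. Of its 3xTg counts 57.97% came from 1 cell, and it did not reach the limit of a measured gene.

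Hspb7, known from heart and skeletal muscle, was the exception, with a count in all 68 cells. It summed to 4196 counts over 3xTg cells and 6297 over WT cells, or 114 (111 to 118) and 185 (181 to 190) CPM, a log2 ratio of -0.70 (-0.75 to -0.64), with -0.50 and -1.21 in the runs, and -1.08 relative to the median gene by the mean over cells. Normalized counts went from 29.2 through 87.6 to 515 in 3xTg and from 24.8 through 113 to 544 in WT. Yet its level over cells followed no other chaperone closely, with Spearman correlations of -0.44 to 0.18 with the 71 other measured members. It followed Vprbp (Dcaf1 in the current annotation) with 0.98, Trmt61a with 0.98, Mapkbp1 with 0.96, Plekhg3 with 0.95 and Mdga1 with 0.93, and its correlation with the number of genes detected in a cell was -0.78, the lowest of the members.

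The transcripts of these 5 genes each share a run of 46 to 71 identical bases with that of Hspb7, on the same strand for Vprbp and Mapkbp1 and on the opposite strand for the other three genes. In Hspb7 the run shared with Vprbp is at chr4:141424718-141424787 (GRCm38, plus strand), 70 bases in exon 3, in the 3′ UTR, 660 bases after the stop codon. Counts that fall on such a shared run cannot be told apart from Hspb7 in this table, so the lower level in 3xTg is that of the counts given to this symbol. Among the 72 measured members, only Hspb7 and Dnajc14 shared at least 30 identical bases with the gene most like them over cells, and the median shared run was 13 bases. Dnajc14 overlaps Ormdl2 on the opposite strand over 1114 bases and followed it with a correlation of 0.83, and whether counting used the strand is not stated. Overlaps on the opposite strand also exist for other measured members. Over 68 cells the partner held more counts than the member for Dnajc17 (Zfyve19, 2656 against 1507) and Dnajc1 (Mllt10, 921 against 874). It held fewer for Dnajc30 (Wbscr22, 3820 against 5148) and Dnajc19 (Fxr1, 3475 against 4332). The partners of Tcp1 (Acat3), Dnaja1 (Smu1), Cct8 (Usp16), Cct7 (Pradc1) and Dnajb6 (Gm5129) were smaller beside the member, down to 90 counts against 24213 for Dnajb6. Part of the counts of all these members may belong to the partner.

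The members that varied together most were the abundant cytosolic ones. Over 68 cells Hspa8 correlated with Hsp90ab1 at 0.95 (0.94 within each genotype), with Hsp90aa1 at 0.91 (0.91 within each), with Hspbap1 at 0.86 and with Cct7 at 0.79. Hspbap1 correlated with Hsp90ab1 at 0.84. The genes of the whole table most like Hspa8 were Hsp90ab1, Zwint with 0.92, Ubb (a polyubiquitin gene) with 0.91, Hsp90aa1 with 0.91 and Gap43 (a growth cone protein) with 0.90. Those most like Hspa1a were Aplp2 with 0.71, Tuba1c with 0.70, Eno1 with 0.69, Bex2 with 0.68 and Atp5b with 0.68. Hspa1a and Dnajb1 had 0.545, Hspa1a and Hspa1b 0.43. Hspd1 and Hspe1, in spite of their shared promoter, had 0.42, with 0.17 in 3xTg and 0.61 in WT. All such correlations are descriptions over cells that share library depth and the number of genes detected.

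**Figure D5:**
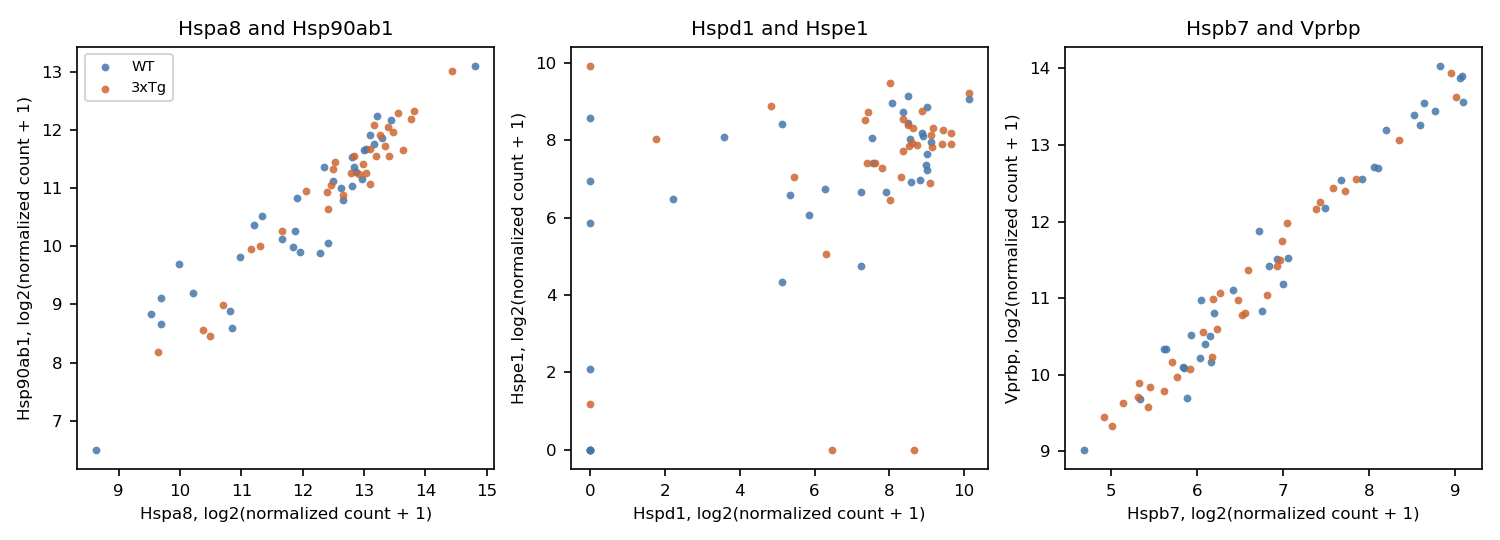
Log2(normalized count + 1) of pairs of genes in the 68 neurons, 3xTg and WT in different colours, each point 1 cell. Hspa8 and Hsp90ab1 (Spearman 0.95) and Hspb7 and Vprbp (0.98) lie on narrow diagonals, while Hspd1 and Hspe1 (0.42) have cells with one of the genes at 0.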

How the data were processed

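The RNA of 68 VTA dopamine neurons was measured by Patch-seq with a directional low-input kit and paired-end sequencing. The authors aligned reads in Strand NGS to the RefSeq transcriptome of mm10, removed duplicates, and deposited expected counts for each gene and cell, 55.3% of those above 0 not whole (tolerance 0.001), together with log2 values normalized by the DESeq2 algorithm. How reads matching several genes were divided is not given in the sources used here. For the report the deposited counts were rounded and summed by genotype, and counts divided by median-of-ratios size factors (787 genes without a 0) gave normalized counts. The second measure, log2(normalized count + 1) averaged over cells, is given relative to the median of all measured genes. Exact Poisson and Clopper-Pearson intervals (95%) cover counting error only, since PCR reads without molecular identifiers are not independent molecules. Cells are not replicates of a genotype, so no test, SD as error or p-value is given. Cells held 492505 to 1678624 counts.

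Members come from a symbol rule and lists from textbook knowledge, and both were chosen with earlier results of these data known. Named are all measured HSP90, CCT and heat-inducible members, the 2 highest sums of each other family, the 5 largest and 5 smallest differences on each measure, and the 5 genes most like Hspa1a and Hspa8. Genes named outside the rule (Hspa1b, Hspa4, Hspa9, Hspb1, Hspb8, Hspb2, Hspb3, Hspb9, Bag3, Bag5, Dnaja2, Dnajc1, Dnajc6, Dnajc7, Dnajc14, Dnajc17, Dnajc19, Dnajc30 and those of other lists) were chosen after their values were seen. Transcript sequences and genes come from GENCODE (GRCm38) and promoters from RefSeq. Both measures were checked on data with known changes, where the mean of log2(normalized count + 1) understated the change. Python 3.11.15, numpy 2.4.6, pandas 2.3.3, scipy 1.17.1, R 4.3.3 and edgeR 4.0.16 (TMM factors only) were used.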

Additional observations from a re-analysis of the deposited data

How the results depend on the processing

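The members' median log2 ratio of summed counts, 0.30, was 0.40 with TMM factors, which moved the median of all genes from -0.02 to 0.09, and 0.43 in the first runs of label numbers. Leaving out 1 cell at a time gave 0.26 to 0.33. The median difference of the mean over cells, 0.38, was 0.63 with a pseudocount of 0.1, 0.74 with no filter, 0.54 with the study's filter, 0.21 with a mean normalized count of at least 50, 0.59 in the second runs, and 0.34 to 0.47 leaving out 1 cell. It stayed above 0 in all of these.

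The counts past 2-fold moved more. Apart from the runs, the share of all genes past 2-fold was not computed for these settings, so the counts describe the members alone. Members numbered 82 with no filter, 42 with the study's filter and 47 at a mean of 50. The median difference of all genes, 0.55, was itself 0.83 with a pseudocount of 0.1, 0.14 with no filter and 0.78 at a mean of 50. By summed counts, 3 higher members became 6 with TMM factors, 7 with no filter, 1 with the study's filter, 1 at a mean of 50, 14 in the first runs and 2 to 6 leaving out 1 cell, and 2 lower members became 4 with no filter, 1 with the study's filter, 1 at a mean of 50, 5 in the second runs and 1 to 3 leaving out 1 cell. By the mean over cells, 12 higher members became 21 with a pseudocount of 0.1, 5 with 10, 29 with no filter, 6 at a mean of 50, 16 in the first runs and 18 in the second. The 1 lower member became 2 with a pseudocount of 0.1, 0 with 10, 0 with no filter, 6 in the first runs, 4 in the second runs, 0 without Hspb7 and Dnajc14 (chosen after seeing the data), and 0 to 1 leaving out 1 cell. The members' median share of counts in 3xTg, 2.33%, was 2.37% in thinned cells, 2.19% in the first runs, 2.62% in the second and 2.30% to 2.35% leaving out 1 cell. In WT, 1.75% was 1.88% in thinned cells, 1.86% without cells holding another marker, 2.18% in the first runs, 1.66% in the second and 1.74% to 1.79% leaving out 1 cell.

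Over 35 named genes, 93 of 805 values under the alternatives had the other sign, and 32 of 70 gene results had no change of sign. Past 2-fold, 3 turned: the difference of Cct2 was -0.40 in cells with a count alone, and in the second runs the log2 ratio of Dnajc28 was 0.44 and that of Hspa12a -0.048. The cause was not tested. No paired analysis was possible because the genotypes share no label numbers. With no mouse named, the spread between mice is unknown, and intervals cover counting error only. Genes near the limit of a measured gene rest on few cells.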
